A study of Mus musculus with 20 samples.

Results

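The potassium channel genes of this study are the 81 genes whose single platform symbol starts with Kcn, out of 18194 genes with a single symbol on the arrays. Of the 84 genes with that prefix, 3 were left out by the rule that defines the set, and each gene was read from its brightest probe set. The set was defined by name and not by measured values, but it was chosen with earlier results of these data known. It holds 78 protein-coding genes and 3 non-coding RNA genes named after a channel gene. A mean of at least 6 on the log2 scale was reached by 76 members, and no member was dropped. Detection calls were not used here, so dim members have no stated presence or absence.

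RNA from dissected pieces enriched in motor or in sensory cortex of 10 female C57Bl6 mice had been hybridised to Affymetrix arrays, 1 for each region of each mouse. Of these mice, 6 had experimental autoimmune encephalomyelitis (EAE), a model of multiple sclerosis. They had been injected at 8 to 12 weeks of age with a peptide of myelin oligodendrocyte glycoprotein, with doses of 100 µg for the flanks and 50 µg for the base of the tail, and with 400 ng of pertussis toxin on days 0 and 3. Their average clinical grades were 2.5 to 3.5. The labels give EAE days 18 to 21 for each mouse, while the protocol puts tissue collection on day 21. The other 4 mice were healthy and came from the same cages. The labels describe no mock injection, so EAE against healthy holds immunisation, toxin and disease together. Both of the 2 cohorts of animals held 3 EAE mice and 2 healthy ones. The tissue is dissected cortex with all its cell types. In such bulk samples, fewer cells of a type and less RNA per cell cannot be told apart.

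Potassium channels let potassium leave the cell and thereby set the resting potential, end action potentials and tune firing rate. Voltage-gated pore subunits assemble as tetramers. Auxiliary subunits change the gating and trafficking of the pore, and the so-called silent subunits carry no current alone but modify pores of the Kv2 family. Inward rectifiers and K2P leak subunits act near the resting potential, and calcium-activated channels couple calcium entry to repolarisation. In cortex different neurons use different sets: fast-spiking interneurons are known for Kv3 channels, dendrites of pyramidal cells for Kv4 channels with their calcium-binding KChIP partners, and axons for Kv1 channels.

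Values are log2 expression as deposited, so a difference of 1 is a 2-fold change, and levels of different probe sets are not compared. Differences were tested with limma over all 18194 genes. A gene is named as changed, higher or lower where its Benjamini-Hochberg adjusted p was under 0.05. The median value per array was 8.22 to 8.32, and pairs of arrays within a group had correlations of 0.988 to 0.998. The regions differed in layer markers. Of 6 layer 4 markers 5 were lower in motor cortex, and of 6 layer 5 markers 4 were higher there. These marker lists were chosen with earlier results of these data known. The replicate is the mouse.

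More potassium channel genes were called between the 2 regions than between the 2 conditions, but the tests differ in design. The regions were compared within 10 mice and the conditions between 6 and 4 mice. The counts therefore do not rank the sizes of the differences. In motor cortex relative to sensory cortex of the same mice, 15 members were higher and 17 lower, or 32 of 81 (39.5%), while 13.2% of all genes were called, 7.67% higher and 5.56% lower. The median absolute difference was 0.10 over members and 0.053 over all genes. Signed medians were close to 0, at 0.013 for members and 0.017 for all genes. The folds of the called members were modest, between 1.08 and 2.33. A fold of at least 1.3 was reached by 5 of the higher and 4 of the lower members. Of the 32 called members, 21 had the same direction in each of the 10 mice (10 higher and 11 lower in motor cortex), and the others in at least 8. Over all 81 members, called or not, a direction shared by all mice was seen for 11 with motor higher and 11 with motor lower (13.6% each). Of all genes 4.42% had motor higher in each mouse and 3.25% had motor lower. The called members were selected on these same differences, so their count of 21 is not to be set against those shares.

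**Figure D1:**
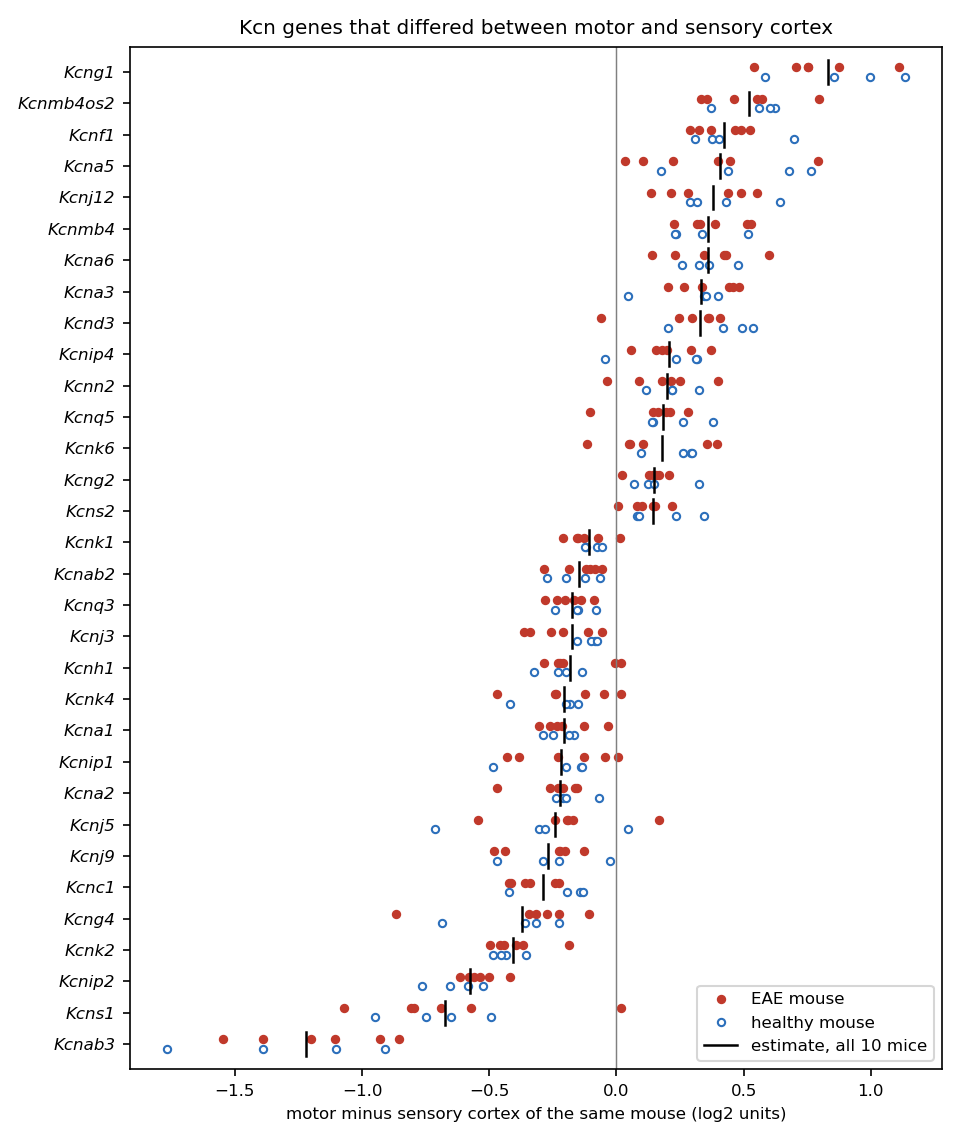
Motor minus sensory cortex of the same mouse, in log2 units on the horizontal axis, for the 32 potassium channel genes called between the regions. Filled points are the 6 EAE mice, open points the 4 healthy mice and bars the limma estimate over all mice. Kcng1 lies right of 0 and Kcnab3 left of 0 in every mouse, and 11 of the 32 members, among them Kcnk1 and Kcnj5, have mice on both sides.

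The auxiliary subunits held the largest difference of the set. Kcnab3 encodes a beta subunit that binds the inner face of Kv1 pores. Its log2 levels in motor cortex ran from 9.73 through a median of 10.02 to 10.27 in EAE mice and were 9.62, 9.63, 9.39 and 10.19 in healthy mice. In sensory cortex they ran from 10.94 through 11.16 to 11.52 in EAE mice and were 11.01, 10.73, 11.15 and 11.10 in healthy mice. No motor array reached the lowest sensory array. The difference was -1.22 ± 0.081 (SE, 10 mice, log2), 2.33-fold lower in motor cortex, with a limma adjusted p of 6.11e-07. The second probe set of Kcnab3 stood at -0.95. Kcnab2, the beta subunit of axonal Kv1 channels, was lower by a smaller amount, at -0.15 ± 0.032, in 10 of 10 mice, and Kcnab1 stood at 0.04 ± 0.039 and was not called.

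Kcnip2 encodes a KChIP, the calcium sensor that brings Kv4 pores to the membrane. Its motor cortex levels ran from 11.69 through 11.95 to 12.06 in EAE mice and were 11.92, 12.15, 11.94 and 12.05 in healthy mice. Its sensory cortex levels ran from 12.21 through 12.47 to 12.59 in EAE mice and were 12.58, 12.68, 12.70 and 12.63 in healthy mice. The ranges of the regions did not overlap, and the difference of -0.57 ± 0.034 had a limma adjusted p of 2.44e-07. The dimmest of its 3 probe sets showed no such difference, at 0.0053, while the other stood at -0.86. Kcnip1 was lower at -0.22 ± 0.049 and Kcnip4 was higher at 0.21 ± 0.041, so the 4 KChIP genes split by member, with Kcnip3 at 0.11 ± 0.038 and not called. Of the Kv4 pores that they bind, Kcnd3 was higher in motor cortex at 0.33 ± 0.050, Kcnd1 stood at 0.10 ± 0.035 (adjusted p 0.0693) and Kcnd2 at -0.04 ± 0.034. The remaining auxiliary difference was that of Kcnmb4, the brain beta subunit of the large-conductance calcium-activated (BK) channel. Kcnmb4 was higher at 0.36 ± 0.039. The BK pore gene Kcnma1 itself was not called, at -0.07 ± 0.084, and its sensory EAE levels were spread from 10.24 to 11.53.

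The silent subunits were divided between the regions, with 4 higher, 2 lower and 3 not called of 9. Kcng1 had the largest rise of the set. Its motor cortex levels ran from 8.50 through 8.83 to 9.17 in EAE mice and were 9.19, 9.39, 9.45 and 9.19 in healthy mice. Its sensory cortex levels ran from 7.80 through 8.04 to 8.18 in EAE mice and were 8.06, 8.54, 8.45 and 8.61 in healthy mice. Within either condition the regions did not overlap, and the motor level was higher by 0.83 ± 0.058, or 1.78-fold, with a limma adjusted p of 8.69e-07. A second and much dimmer probe set of Kcng1 stood at 0.018. Kcnf1, another silent subunit, was higher by 0.42 ± 0.040, and Kcng2 and Kcns2 were higher by 0.15 ± 0.032 and 0.14 ± 0.035.

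Kcns1 and Kcng4 were the silent subunits with lower motor cortex levels. Kcns1 ran from 8.58 through 8.72 to 9.26 in the motor cortex of EAE mice and stood at 8.78, 9.05, 8.74 and 9.18 in that of healthy mice. In sensory cortex it ran from 9.24 through 9.45 to 9.67 in EAE mice and stood at 9.53, 9.70, 9.69 and 9.67 in healthy mice. The regions overlapped only through the motor array of EAE mouse 6 at 9.26. The difference of Kcns1 was -0.68 ± 0.081 (limma adjusted p 7.87e-05), seen in 9 of 10 mice. Kcng4 was lower at -0.37 ± 0.064 in 10 of 10 mice.

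**Figure D2:**
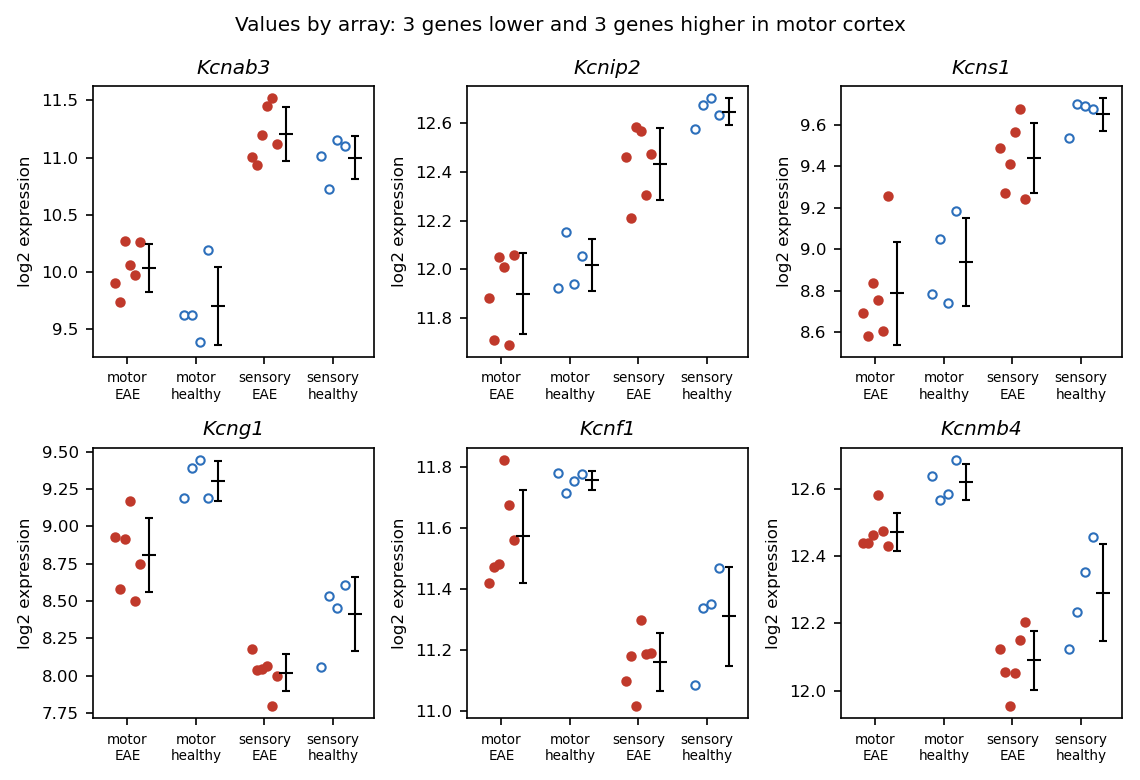
Log2 expression on each array for Kcnab3, Kcnip2 and Kcns1, which were lower in motor cortex, and for Kcng1, Kcnf1 and Kcnmb4, which were higher there. Filled points are EAE mice, open points healthy mice, and bars give the mean and SD of a group. Within each condition the motor values lie below the sensory values in the upper row, apart from 1 Kcns1 motor array of an EAE mouse at 9.26, and above them in the lower row.

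Among the voltage-gated pores, the Kv1 family went both ways. Kcna6, Kcna3 and Kcna5 were higher in motor cortex, by 0.36 ± 0.042, 0.33 ± 0.042 and 0.41 ± 0.075, each in 10 of 10 mice. Kcna1 and Kcna2, the pores of the axonal low-threshold current, were lower by a smaller amount, at -0.21 ± 0.032 and -0.22 ± 0.036, also in 10 of 10 mice. The probe sets of Kcna6 disagreed: the brightest and dimmest stood at 0.36 and 0.27, and the other at -0.53 with an unadjusted p of 3.11e-06. With the mean of its probe sets Kcna6 was not called. The limma adjusted p was then 0.692, and it ran from 3.01e-06 to 0.692 over 20 alternatives. Kcnc1, the Kv3 pore of fast-spiking neurons, was lower at -0.29 ± 0.038. Of its 3 other probe sets 1 stood at -0.40 and the others at -0.069 and -0.0034. The second Kv3 gene, Kcnc2, stood at 0.05 ± 0.027 and was not called. The remaining Kv3 gene, Kcnc4, stood at 0.12, was higher in motor cortex in 9 of 10 mice and was not called.

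The Kv7 subunits of the muscarine-sensitive M current also split, with Kcnq3 lower at -0.17 ± 0.029 and Kcnq5 higher at 0.18 ± 0.041. Of 5 genes of the ether-a-go-go family Kcnh1 was lower, at -0.18 ± 0.038, and Kcnh2 stood at 0.05 ± 0.040. Among 13 inward rectifier genes, Kcnj12, a strong rectifier of the resting membrane, was higher at 0.38 ± 0.048 in 10 of 10 mice. Of the G protein-gated rectifier genes, which serve inhibitory transmitter receptors, 3 were lower. These were Kcnj3 at -0.18 ± 0.038, Kcnj9 at -0.27 ± 0.046 and Kcnj5 at -0.24 ± 0.070. The remaining G protein-gated gene Kcnj6 stood at -0.10 ± 0.045 (adjusted p 0.182). Of 12 K2P leak genes, Kcnk2, a channel opened by membrane stretch, was lower at -0.41 ± 0.033 in 10 of 10 mice, Kcnk4, its stretch-sensitive relative, was lower at -0.21 ± 0.046 and Kcnk1 at -0.11 ± 0.029. Kcnk6 was higher at 0.18 ± 0.049. Of the 8 calcium- and sodium-activated pore genes, Kcnn2, a small-conductance channel of the after-hyperpolarisation, was higher at 0.20 ± 0.040.

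Kcnmb4os2, a non-coding gene named for the strand opposite Kcnmb4, was higher together with it, at 0.52 ± 0.044 in 10 of 10 mice. The second such gene, Kcnmb4os1, stood at 0.02 ± 0.10 and was dim, with group means of 5.72 to 5.90. Whether Kcnmb4 and Kcnmb4os2 share transcripts that reach both probe sets was not tested.

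Of the 32 region calls, 29 were kept whichever mouse was left out, with 29 to 33 members called in those fits. The exceptions were Kcnj5, Kcnk1 and Kcnk6, whose limma adjusted p without 1 mouse ran up to 0.0734, 0.0536 and 0.0665. Within cohorts 1 and 2 alone, 15 and 18 members were called, all of them among the 32, while 2.87% and 5.51% of all genes were called there. Of the 20 called members with several probe sets, 14 had the same sign in all of them. Another probe set of the same sign had an unadjusted limma p under 0.05 for 15 of the 20. A probe set of opposite sign had an unadjusted limma p under 0.05 for 1 member, Kcna6.

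The region difference could be read separately in the 2 conditions, which share no array. In EAE mice 14 members (17.3%) were called, 7 higher and 7 lower in motor cortex, against 4% of all genes (2.14% higher and 1.86% lower). In healthy mice 25 members (30.9%) were called, 13 higher and 12 lower, against 7.35% of all genes (4.42% higher and 2.94% lower). Both conditions called 13 members in the same direction, 92.9% of the EAE calls and 52.0% of the healthy calls. For all genes these shares were 78.4% and 42.7%. All 25 healthy calls had the same sign in EAE mice, as did 1282 of the 1338 healthy calls over all genes. Across the 81 members the differences in the 2 conditions correlated at 0.947 (Pearson) and 0.851 (Spearman), a description over genes that share mice and arrays within each condition. Over all genes these values were 0.759 and 0.557. The difference of Kcnab3 was -1.17 ± 0.090 in EAE mice and -1.29 ± 0.11 in healthy mice, that of Kcng1 0.79 ± 0.070 and 0.89 ± 0.079, and that of Kcnip2 -0.53 ± 0.046 and -0.63 ± 0.057.

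**Figure D3:**
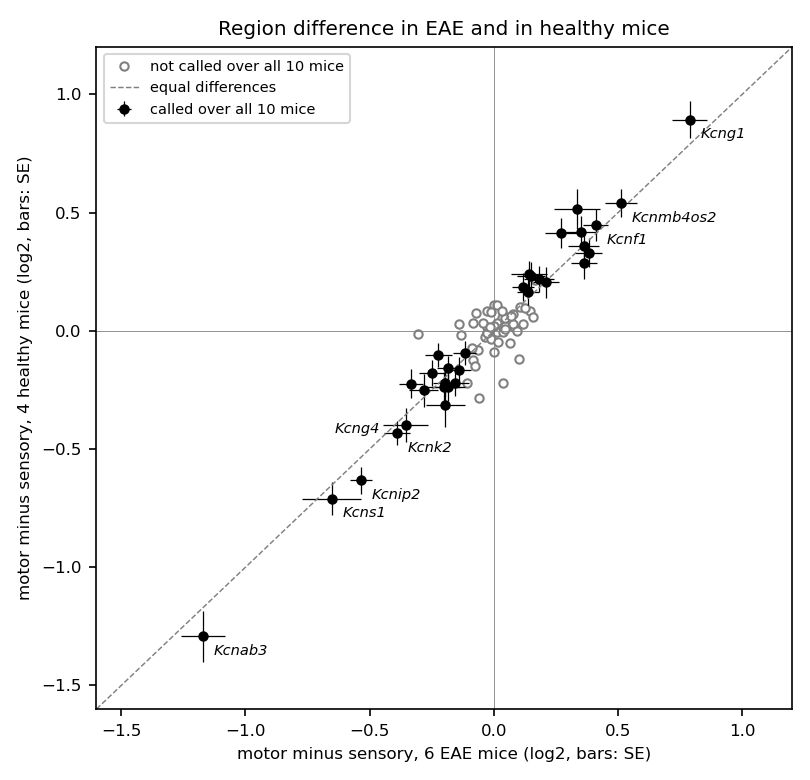
Motor minus sensory difference of each of the 81 potassium channel genes in the 6 EAE mice (horizontal axis) and in the 4 healthy mice (vertical axis), in log2 units. Filled points with SE bars were called over all 10 mice, open points were not, and the dashed line marks equal differences. The filled points lie near the line, from Kcnab3 at -1.17 and -1.29 to Kcng1 at 0.79 and 0.89.

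Markers of cortical layers moved with the region as well. Of 6 layer 4 markers 5 were lower in motor cortex, led by Cyp39a1 at -2.05, Rorb at -1.17 and Rspo1 at -1.20. The mean log2 level of the list was 9.21 to 9.52 in motor cortex of EAE mice and 10.02 to 10.37 in their sensory cortex, and 9.23 to 9.49 and 10.18 to 10.44 in the same regions of healthy mice. Upper layer markers were lower for 5 of 6, and layer 5 markers higher for 4 of 6, led by Crym at 1.59 and Fezf2 at 0.72. Over all genes the differences ran from -2.05 to 1.59, so Cyp39a1 and Crym lie at the ends of that range. The marker lists were chosen with earlier results of these data known and give no independent check of layer content. The layer 6 list had 0 of 6 called, with 1 at an unadjusted p under 0.05. Of 8 inhibitory neuron markers 2 were higher and 2 lower. Pvalb, the marker of fast-spiking interneurons, was among the lower ones, at -0.36 ± 0.047. The mean level of that list differed little within a mouse, by -0.12 to 0.036 (motor minus sensory). Mural cell markers were lower for 5 of 7 and fibroblast and meninges markers for 3 of 7. Astrocyte markers were lower for 3 of 8, with Gfap at -0.60 ± 0.073, and the mean level of that list was lower in motor cortex in each mouse, by -0.26 to -0.028. The part of these cell types in the channel differences was not tested.

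Other genes of membrane excitability, taken from a list set apart from the members, gave the following counts between the regions. Of 7 measured sodium channel subunit genes 3 were higher in motor cortex and 2 lower, with Scn3b at 0.53 ± 0.063 and Scn1a, the sodium channel of fast-spiking interneurons, at -0.31 ± 0.055. Of 15 genes of channel-clustering proteins 4 were lower, by small amounts. They were Cntn2 and Cntnap2, which hold Kv1 channels beside the node of Ranvier, at -0.21 and -0.11, and the initial segment scaffold genes Ank3 and Sptbn4, at -0.10 and -0.13. Abcc8, the sulfonylurea receptor that pairs with rectifiers gated by ATP, was lower at -0.44 ± 0.058, whereas Kcnj11, the pore gene of these channels, stood at -0.02 ± 0.035. Hcn3, 1 of 2 measured genes of the hyperpolarisation-activated channels, was higher at 0.35 ± 0.057. Of 5 partner genes of Kv4 and BK channels Dpp6 was higher at 0.10 ± 0.030. Of 3 measured sodium-potassium pump genes Atp1b2 was lower at -0.14 ± 0.037. No potassium-coupled chloride transporter gene was called by limma (0 of 4, also at an unadjusted p under 0.05).

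To show the regulatory sequence next to some of these genes, the 250 bases before the annotated start are given for 5 members, chosen after their values were seen. They are Kcnip2 and Kcnc1, which were lower in motor cortex, Kcna6 and Kcnmb4, which were higher in motor cortex and lower in EAE, and Kcna5, which was higher in EAE as described further on. The windows come from RefSeq on GRCm38.p6 and read 5′ to 3′ on the strand of the gene, and capitals mark matches to GGGCGG, the GC box bound by Sp1, on either strand.
Kcnip2, chr19:45816064-45816313, minus strand: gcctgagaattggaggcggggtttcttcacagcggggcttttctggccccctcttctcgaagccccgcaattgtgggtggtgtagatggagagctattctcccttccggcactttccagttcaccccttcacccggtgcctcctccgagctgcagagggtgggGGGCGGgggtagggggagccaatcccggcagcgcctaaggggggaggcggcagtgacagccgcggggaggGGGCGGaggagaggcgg
Kcnc1, chr7:46396218-46396467, plus strand: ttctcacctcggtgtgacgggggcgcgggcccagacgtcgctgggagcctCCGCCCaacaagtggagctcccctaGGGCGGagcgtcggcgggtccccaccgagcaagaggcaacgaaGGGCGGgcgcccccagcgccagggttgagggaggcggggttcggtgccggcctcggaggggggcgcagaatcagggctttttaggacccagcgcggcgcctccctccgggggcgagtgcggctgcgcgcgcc
Kcna6, chr6:126740675-126740924, minus strand: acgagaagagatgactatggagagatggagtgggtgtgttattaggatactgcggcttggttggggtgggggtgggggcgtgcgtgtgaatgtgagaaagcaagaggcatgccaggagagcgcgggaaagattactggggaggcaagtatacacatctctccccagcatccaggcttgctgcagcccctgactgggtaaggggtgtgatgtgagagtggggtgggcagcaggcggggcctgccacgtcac
Kcnmb4, chr10:116473524-116473773, minus strand: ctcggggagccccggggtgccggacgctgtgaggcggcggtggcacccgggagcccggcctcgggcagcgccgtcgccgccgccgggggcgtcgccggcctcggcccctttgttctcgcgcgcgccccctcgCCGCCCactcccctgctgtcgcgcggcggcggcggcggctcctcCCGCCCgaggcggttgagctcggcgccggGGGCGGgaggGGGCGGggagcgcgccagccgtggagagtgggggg
Kcna5, chr6:126535556-126535805, minus strand: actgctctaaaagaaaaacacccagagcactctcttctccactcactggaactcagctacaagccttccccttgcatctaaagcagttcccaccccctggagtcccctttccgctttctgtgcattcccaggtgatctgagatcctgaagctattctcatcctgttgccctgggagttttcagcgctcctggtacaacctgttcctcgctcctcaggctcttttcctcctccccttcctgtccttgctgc
The GC box occurred 2 times before Kcnip2, 3 times before Kcnc1 and 4 times before Kcnmb4, and 0 times before Kcna6 and Kcna5. It was held by 32.7% of 32841 such windows of all genes and by 44.2% of 86 windows of 61 members. The GC content was 66.8%, 74.4%, 58.8%, 83.6% and 53.2% in the order shown. Its median was 52.4% over all windows and 58.6% over the 86 member windows. None of the 5 held TATAAA, TGACGTCA or AGGTCA on either strand. These are held by 12.4%, 1.55% and 14.0% of all windows and by 3.49%, 0% and 5.81% of the member windows. Of these motifs only TGACGTCA reads the same on both strands, and no motif lies within another. A match is a description of these letters and not a binding site.

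The comparison of EAE with healthy mice called fewer potassium channel genes than that of the regions, which was made within mice. In motor cortex 1 member was higher and 2 were lower, 3.70% of members against 2.25% of all genes (0.517% higher and 1.74% lower). In sensory cortex 1 was lower, 1.23% against 2.41% of all genes (0.901% higher and 1.51% lower). These shares are near the background. With the 2 arrays of each mouse averaged, 2 members were higher and 8 lower, 12.3% against 7.87% of all genes (2.23% higher and 5.64% lower). The 10 folds ran from 1.12 to 1.42. The median difference over all members was -0.03, and over all genes 0.00022. The median absolute difference was 0.106 over members and 0.075 over all genes. Between the regions these values were 0.104 and 0.053. With quantile normalization of the arrays 4 were higher and 5 lower over both regions, and 0 higher and 1 lower in motor cortex. Over all genes that setting called 450 higher and 603 lower (5.79%) over both regions and 1.91% in motor cortex.

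Kcna5 was the member with the largest EAE difference. It encodes a delayed rectifier pore best known from heart and vascular smooth muscle. In motor cortex its levels ran from 7.87 through 8.22 to 8.30 in EAE mice, against 7.74, 7.77, 7.93 and 7.52 in healthy mice. In sensory cortex they ran from 7.45 through 7.82 to 8.19 in EAE mice, against 6.98, 7.09, 7.49 and 7.34 in healthy mice. In each region only 1 EAE mouse, mouse 1 in motor and mouse 4 in sensory cortex, lay below the highest healthy mouse. The limma differences were 0.42 ± 0.094 in motor cortex (adjusted p 0.0371), 0.60 ± 0.15 in sensory cortex (adjusted p 0.0624, not called) and 0.51 ± 0.092 over both (adjusted p 0.00973). Over both regions Kcna5 was the only member called whichever mouse was left out, with a limma adjusted p of 0.00965 to 0.0458. It was lost within cohorts 1 and 2 and without the 2 mice with an array of the second processing day, where the adjusted p reached 0.246. The motor call alone was lost without 8 of the 10 mice, with an adjusted p of up to 0.118.

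Kcnab2, the other member that was higher, rose by 0.17 ± 0.045 over both regions (limma adjusted p 0.0469). In sensory cortex its 6 EAE values (12.85 to 13.08) lay above the 4 healthy values of 12.72, 12.80, 12.82 and 12.83. In motor cortex the EAE values ran from 12.70 through 12.81 to 12.93, against 12.66, 12.52, 12.62 and 12.71 in healthy mice, and the groups touched. Its second probe set stood at 0.16. Kcnn2 stood at 0.25 ± 0.068 over both regions (adjusted p 0.0524), and its sensory EAE values (9.82 to 10.16) also lay above all healthy values (9.61 to 9.76).

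Silent subunits made up 3 of the 8 members that were lower. Kcng4 had sensory cortex levels from 8.07 through 8.31 to 8.54 in EAE mice, against 8.61, 8.57, 8.83 and 8.88 in healthy mice, with no overlap. Its motor cortex levels ran from 7.67 through 8.00 to 8.24 in EAE mice, against 8.38, 8.25, 8.14 and 8.52 in healthy mice. The limma difference was -0.39 ± 0.067 in sensory cortex (adjusted p 0.0231), -0.35 ± 0.12 in motor cortex (adjusted p 0.167) and -0.37 ± 0.077 over both. In sensory cortex the call was lost without any of healthy mice 1 to 4, with an adjusted p of up to 0.100, and without the cohort term, with an adjusted p of 0.0537. Kcng1 fell by 0.45 ± 0.098 over both regions. In motor cortex no EAE value of Kcng1 (8.50 to 9.17) reached the healthy values of 9.19, 9.39, 9.45 and 9.19, and the limma adjusted p there was 0.0520. Its dim second probe set stood at 0.12 over both regions, and with the mean of the probe sets the call was lost. Kcnv1 fell by 0.24 ± 0.062, with its 2 other probe sets at -0.31 and -0.30. Its call was kept in 2 of the 10 fits that left out 1 mouse. It was lost without the cohort term and with quantile normalization. Over the 9 silent subunits the median was -0.18, against 0.00022 over all genes, and 7 lay below 0. Whether the silent subunits fell as a family was not tested.

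The other members that were lower came from several families. Kcna6 fell by 0.26 ± 0.056 over both regions. Its sensory EAE values ran from 10.37 through 10.54 to 10.67, below the healthy values of 10.77, 10.79, 10.79 and 10.78. Another probe set stood at -0.34, and the probe set that opposed it between the regions stood at 0.018. Kcnj12 fell by 0.33 ± 0.079 in motor cortex (limma adjusted p 0.0481) and by 0.30 ± 0.073 over both, with motor EAE values from 8.01 through 8.12 to 8.40 against 8.61, 8.56, 8.43 and 8.40 in healthy mice. Kcne1l, an auxiliary subunit gene of the minK family, fell by 0.28 ± 0.062 in motor cortex (limma adjusted p 0.0357). There its EAE values ran from 7.13 through 7.21 to 7.39 and lay below the healthy values of 7.49, 7.52, 7.52 and 7.59. Kcnmb4 fell by 0.18 ± 0.037 over both regions and Kcnh2, a subunit of the ether-a-go-go related channel, fell by 0.17 ± 0.042.

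**Figure D4:**
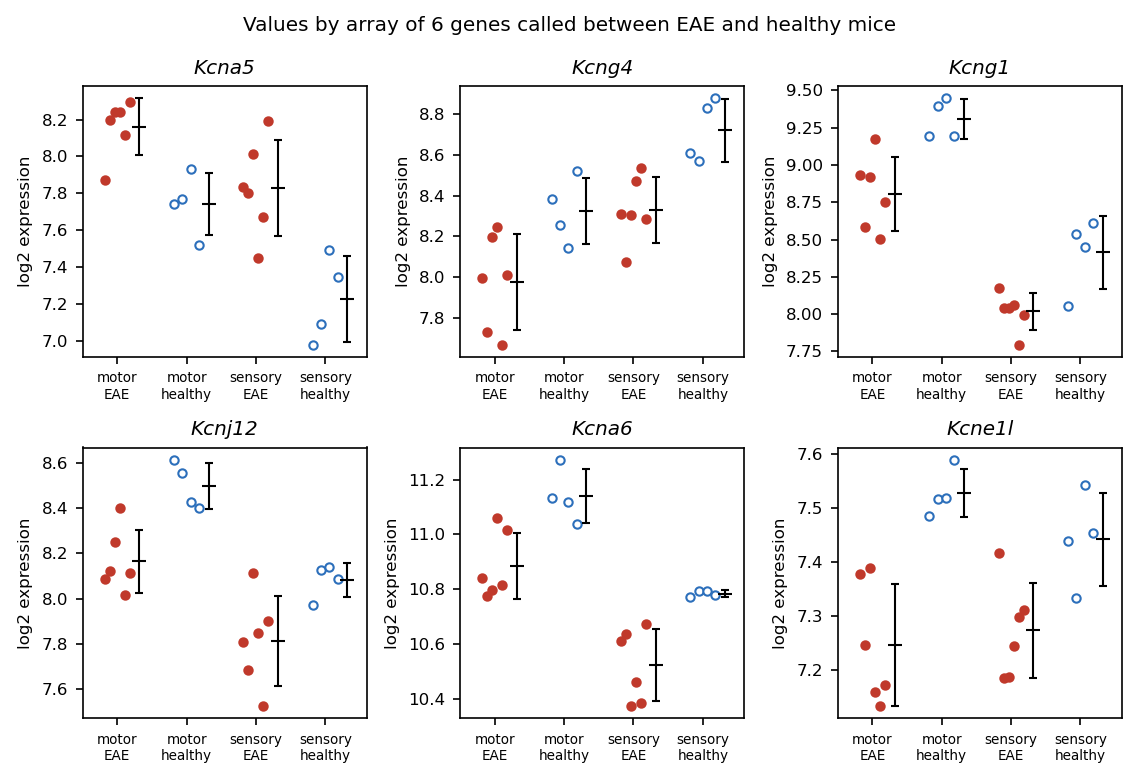
Log2 expression on each array for 6 potassium channel genes called between EAE and healthy mice in at least 1 fit. Filled points are EAE mice, open points healthy mice, and bars give the mean and SD of a group. Kcna5 lies higher in the EAE groups and the other 5 genes lower, with ranges that touch or overlap in at least 1 region for each gene.

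Read array by array, 0 members had all EAE values above all healthy values in motor cortex (1.48% of all genes) and 3 had them below (4.19%), namely Kcng1, Kcne1l and Kcnq3. In sensory cortex 3 lay above (2.45%), namely Kcna2, Kcnab2 and Kcnn2, and 4 below (4.04%), namely Kcna6, Kcnc4, Kcng4 and Kcnk2. Most pore families had no called member over both regions. They were the Kv3, Kv4 and Kv7 genes, with 3 members each, the 12 K2P leak genes and the 8 calcium- and sodium-activated pore genes, with 1, 1, 0, 2 and 1 members at an unadjusted p under 0.05. Kcnc1, at 0.05 ± 0.051, and Kcnq3, at -0.06 ± 0.037, were among the members not called.

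**Figure D5:**
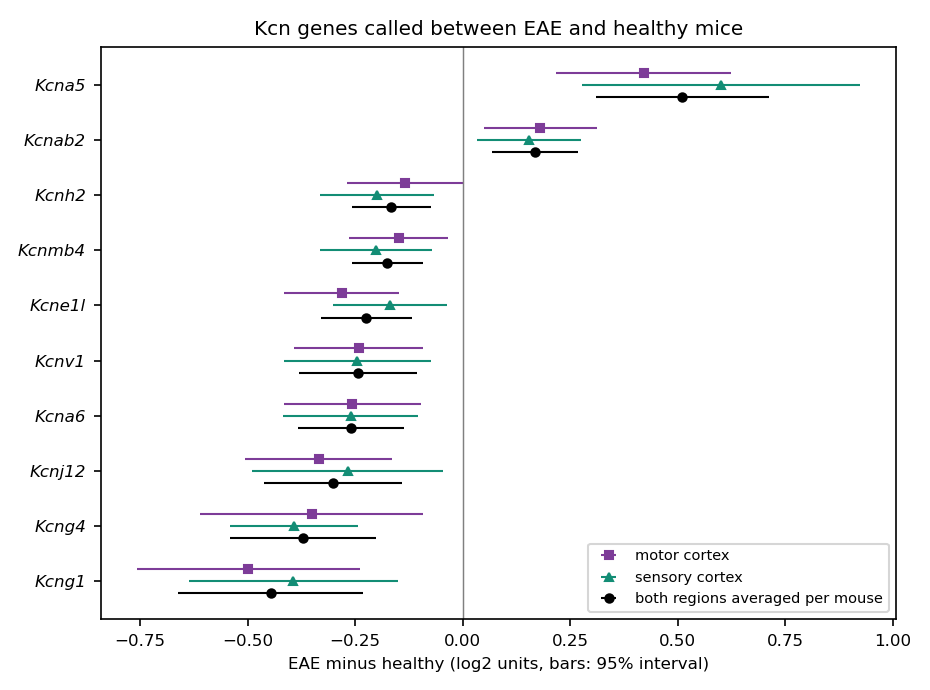
EAE minus healthy difference in log2 units, with 95% intervals, for the 10 potassium channel genes called with both regions averaged. Squares are motor cortex, triangles sensory cortex and circles the average of both. All 3 estimates of each gene lie on the same side of 0.

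The EAE calls depended on single mice. Over both regions the count of 10 became 14, 6, 8, 8, 7 and 8 without EAE mice 1 to 6, and 4, 3, 3 and 2 without healthy mice 1 to 4. The share of all genes called moved as well, being 9.96% without EAE mouse 1, 4.28% to 7.34% without another of the EAE mice and 2.59% to 4.21% without a healthy mouse. The motor count of 3 became 3, 0, 1, 2, 0 and 0 without EAE mice 1 to 6, and 0, 0, 1 and 0 without healthy mice 1 to 4. The sensory count of 1 became 5, 1, 1, 2, 1 and 1 without EAE mice 1 to 6, and 1, 0, 0 and 0 without healthy mice 1 to 4. These counts can hold other genes. The 1 sensory call without healthy mouse 1 was not Kcng4. Of the 3 motor calls, 2 were kept without EAE mouse 1 and 1 without EAE mouse 4. Over all genes the share in those fits ran from 0.797% to 2.58% in motor cortex and from 0.104% to 5.55% in sensory cortex. Without the 2 mice that have an array from the second processing day, healthy mice 1 and 4, the count over both regions was 0, and 6 of all 18194 genes (0.033%) were called.

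Markers of other cells moved with EAE beside these differences. Over both regions 7 of 9 microglia markers were called, 6 lower and 1 higher, 4 of 8 oligodendrocyte markers were lower and 5 of 7 endothelial markers were lower. The mean log2 level of the endothelial list was 9.39 to 9.64 in motor cortex of EAE mice and 9.67 to 9.88 in that of healthy mice. That of the microglia list was 10.08 to 10.26 in EAE mice and 10.48 to 10.64 in healthy mice. That of the oligodendrocyte list was 11.35 to 11.59 in EAE mice and 11.66 to 12.04 in healthy mice. In sensory cortex the oligodendrocyte means overlapped, at 11.33 to 11.87 in EAE mice and 11.77 to 11.85 in healthy mice. The endothelial means did not overlap there, at 9.42 to 9.66 and 9.83 to 9.98. Nor did the microglia means, at 9.86 to 10.34 and 10.36 to 10.57. The excitatory neuron list, with 0 of 5 called and 2 at an unadjusted p under 0.05, had motor means of 12.91 to 13.02 in EAE mice and 12.93 to 13.09 in healthy mice. Of 8 inhibitory neuron markers Vip was higher at 0.36 ± 0.052 and Sst lower at -0.27 ± 0.058. Astrocyte markers were called for 1 of 8, with Gjb6 higher at 0.62 ± 0.076. In sensory cortex the mean level of that list was 12.49 to 12.77 in EAE mice and 12.35 to 12.45 in healthy mice, with no overlap. In motor cortex its means overlapped, at 12.29 to 12.55 in EAE mice and 12.26 to 12.36 in healthy mice. Layer 5 markers were higher for 2 of 6 (Crym and Bcl6) and layer 4 markers for 1 of 6, and mural cell markers were lower for 2 of 7 (Rgs5 and Vtn), layer 6 markers for 1 of 6 and fibroblast and meninges markers for 1 of 7. The part of these cell types in the channel differences was not tested. Of the other excitability genes 4 were lower over both regions. They were Cntn2 at -0.23 ± 0.047, the synaptic scaffold gene Dlg4 at -0.23 ± 0.049, the sodium channel beta subunit gene Scn4b at -0.23 ± 0.051 and the transporter gene Slc12a4 at -0.21 ± 0.056.

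Whether the EAE effect differed between the regions was tested on each mouse's motor minus sensory value, EAE against healthy. With limma 0 of 81 members and 0 of 18194 genes passed (0% called), also with limma-trend, and 1 member and 422 genes had an unadjusted p under 0.05. That member was Kcnmb2, a BK beta subunit gene, at 0.22 ± 0.084 (motor effect minus sensory effect). For Kcna5 the difference between the effects was -0.18, with a 95% interval from -0.52 to 0.16. For Kcng4 it was 0.04, with an interval from -0.23 to 0.32.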

How the data were processed

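The authors deposited log2 expression values, which per the submitters' processing notes came from RMA and Partek. Their versions are not given in the sources used here. The values ran from 3.79 to 15.1 over 45101 probe sets on 20 arrays. In the platform annotation 34958 probe sets carried a single gene symbol and 932 carried several, while 9211 had no entry, and only those with a single symbol were used. Of a gene's probe sets the one with the highest mean over all arrays stood for it, which left 18194 genes. The 81 members had 164 probe sets, and all matched RefSeq by Entrez ID. The members and gene lists were chosen with earlier results of these data known. The 2 strand-opposite genes named after Kcnmb4 were taken out of the auxiliary group by their RefSeq biotype, after it was seen.

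Models were fitted with limma 3.58.1 (lmFit and eBayes) in R 4.3.3 to all 18194 genes, with Benjamini-Hochberg adjustment over all of them, and were tested on simulated data. EAE was set against healthy with cohort as a covariate, in motor cortex, in sensory cortex and on the mean of the 2 arrays of each mouse. The difference of the EAE effects used each mouse's motor minus sensory value. In the comparison of motor with sensory cortex each mouse was a block, since the labels give both arrays of a number to 1 animal. After removal of group means the 2 arrays of a mouse correlated at 0.163 to 0.587, apart from EAE mouse 3 at -0.0316. EAE and healthy mice of the same number are different animals, so these numbers pair nothing.

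Members were named where a comparison called them, where they were among the 5 with the smallest p in a direction or the brightest of their family, or where they stood in a fixed set. Any other member given by name was picked with its values in view. Alternatives covered the model terms, probe set choice, dim genes, quantile normalization, limma-trend, single cohorts and conditions, and the omission of each mouse. The 2 arrays from the second processing day were also left out. Where both arrays of a mouse were used, this dropped healthy mice 1 and 4. Within motor or sensory cortex alone it was the same fit as that without healthy mouse 4 or 1. The smallest root mean square difference between arrays of a group was 0.145, so none was a duplicate. The number of arrays limits the precision.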

Additional observations from a re-analysis of the deposited data

Results flagged for a closer look

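For the 47 named members, the array farthest from the others of its group was examined with Dixon's criterion in 188 groups of 4 or 6 mice. It marked 12 groups (6.38%), close to the 5% of groups that chance marks. The lowest array stood apart in 8 of them. Kcna4 was at 7.99 in the motor cortex of EAE mouse 2, where the next array was at 8.18. Kcnj9 in the same array was at 10.65, with the next at 10.97, and Kcnq3 there was at 12.43, with the next at 12.54. EAE mouse 2 therefore held 3 of the marked motor values. Kcnn2 was at 9.78 in the motor cortex of EAE mouse 1, with the next array at 10.10. Kcnma1, the BK pore gene, was at 10.24 in the sensory cortex of EAE mouse 6, with the next at 11.09, the widest such gap of the 12.

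Among healthy mice, Kcnd3 was at 11.63 in the motor cortex of mouse 4, with the next array at 11.72, and Kcnh1 at 11.61 in that of mouse 3, with the next at 11.71. Kcns1 was at 9.53 in the sensory cortex of healthy mouse 1, with the next at 9.67. The motor array of healthy mouse 4 and the sensory array of healthy mouse 1 are the 2 from the second processing day.

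The highest array stood apart in the other 4 groups. Kcnmb4 was at 12.58 in the motor cortex of EAE mouse 4, with the next at 12.48, and Kcnn2 at 10.16 in the sensory cortex of EAE mouse 2, with the next at 9.94. Kcnj9 was at 11.38 in the motor cortex of healthy mouse 4, with the next at 11.07, and Kcnd3 at 11.51 in the sensory cortex of healthy mouse 2, with the next at 11.24. No member's EAE effect differed between motor and sensory cortex by the limma test of that difference.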

How the results depend on the processing

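No member's difference that was called changed its sign under an alternative. Of the 32 members called between motor and sensory cortex, 15 were called within cohort 1, 18 within cohort 2 and 14 in EAE mice only, fits that hold fewer mice. The other alternatives called 25 to 37, with 29 to 33 when 1 mouse was left out and 29 without the mouse block. In motor cortex the 3 EAE calls became 1 with quantile normalization, 0 without the second processing day and 0 within either cohort, and 0 to 3 when 1 mouse was left out. In motor cortex the fit without the second processing day is the fit without healthy mouse 4. In sensory cortex the 1 EAE call became 5 with limma-trend, 0 within either cohort, and 0 to 5 when 1 mouse was left out. Over both regions the 10 EAE calls became 0 without the second processing day, 0 within cohort 1 and 3 within cohort 2, and 2 to 14 when 1 mouse was left out. With mouse number as a replicate block, which pairs different animals, the EAE calls numbered 1 in motor cortex, 0 in sensory cortex and 5 over both regions. The cause of the changes under quantile normalization and limma-trend was not tested. The test of a region-dependent EAE effect called 0 members in every setting. Of the region calls 29 of 32 were kept whichever mouse was left out and 11 under all alternatives. Of the 10 EAE calls over both regions these numbers were 1 and 0.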

Other observations

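Kcnj13 and Kcne2, channel genes known from the choroid plexus, were not called in any comparison. Kcne2 was dim, with group means of 5.17 to 5.31, so its lack of a call says little. Kcnj13 ran from 7.71 through 8.25 to 8.82 in the motor cortex of EAE mice and from 8.04 through 8.22 to 8.42 in that of healthy mice, so the healthy values lay inside the EAE range. Over both regions Kcnj13 stood at 0.12 ± 0.15 and Kcne2 at 0.09 ± 0.074 (SE, EAE minus healthy, log2). Of 6 choroid plexus markers 0 were called by limma between EAE and healthy mice over both regions, with 1 at an unadjusted p under 0.05. Kcnq1ot1, a long non-coding RNA gene that overlaps the Kcnq1 locus, stood at -0.06 ± 0.080 between EAE and healthy mice and at -0.0036 ± 0.036 between motor and sensory cortex.

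The beta subunit genes Kcne1 and Kcne3 stood at 0.17 ± 0.051 and 0.16 ± 0.061 between EAE and healthy mice over both regions, with limma adjusted p of 0.0620 and 0.121. Kcne3 was dim, with group means of 4.67 to 4.91. The Kv1 pore gene Kcna4 stood at -0.18 ± 0.057 (adjusted p 0.0845). The silent subunit gene Kcns3 was lower in motor than in sensory cortex in healthy mice, at -0.29 ± 0.077 (limma adjusted p 0.0454), and stood at -0.06 ± 0.089 in EAE mice. The difference between these was 0.22 ± 0.13 and was not called. The sodium-activated pore gene Kcnt2 stood at -0.31 ± 0.087 in EAE mice (adjusted p 0.108) and at -0.01 ± 0.076 in healthy mice, and the difference between these, -0.29 ± 0.14, was not called either.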
